A study of Mus musculus with 19 samples.

Results

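A set of 9 genes of the BMP and activin system was followed across sorted cells of mouse pancreatic tumours: the ligand genes Bmp2, Bmp4, Bmp7, Inhba, Inhbb and Gdf15, and the antagonist genes Grem1, Nog and Fst. They are a named list, so all 9 of the 51707 genes summed from the deposited tables are described here. The tumours were pancreatic ductal adenocarcinomas that grew from T-LOH KPC organoids placed orthotopically in C57BL/6J mice, and the mice received the ERBB family kinase inhibitor neratinib, or vehicle, for 2 weeks. PDPN+ cells, called cancer-associated fibroblasts (CAFs) in the labels, gave 4 neratinib and 4 vehicle libraries, and EpCAM+ cells, called epithelial cells, gave 5 neratinib and 6 vehicle libraries. Every group thus carries the same organoid-derived tumour and the same host strain, and no cells from animals without a tumour were included. Each label holds a number of 5 digits that was taken, by inference, to name the mouse. There were 11 such numbers, 8 of which occurred in both populations and 0 in both treatments. A mouse is written below with N (neratinib) or V (vehicle) before its number.

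BMPs, activins and GDFs are secreted dimers of the TGF-beta superfamily that bind pairs of type I and type II serine/threonine kinase receptors. BMP receptors phosphorylate SMAD1, SMAD5 and SMAD9, activin receptors phosphorylate SMAD2 and SMAD3, and both branches share SMAD4. Extracellular antagonists hold the ligands back: gremlin 1 and noggin bind BMPs, and follistatin binds activins with high affinity and some BMPs more weakly. In pancreatic tumours, activin A and BMP signalling are known in both fibroblasts and tumour cells, and GDF15 is a stress-induced cytokine that acts through GFRAL in the hindbrain and is linked to wasting.

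The libraries held 33.3 to 51.4 M (mega) transcript reads in PDPN+ cells and 40.3 to 76.9 M in EpCAM+ cells. Fibroblast markers (7 genes, Col1a1 and Pdgfra among them) summed to 4965 to 8218 TPM (transcripts-per-million) in PDPN+ libraries, against 8.73 to 80.4 TPM in EpCAM+ libraries. Epithelial markers (6 genes, Epcam and Krt19 among them) summed to 274 to 1197 TPM in PDPN+ libraries, against 16145 to 21898 TPM in EpCAM+ libraries. The labelled cell types were thus borne out by these lists, with epithelial transcripts present in every PDPN+ library. The lists include the sorting markers themselves, Pdpn and Epcam. Mesothelial markers (4 genes) summed to 268 to 1059 TPM in PDPN+ libraries and 573 to 1012 TPM in EpCAM+ libraries. In the test between populations described below, 3 of the 4 were higher in PDPN+ cells and 0 lower. The part of mesothelial cells in the PDPN+ values was not tested. Mitochondrial genes took 6.14 to 19.4% of reads in PDPN+ libraries and 2.15 to 2.89% in EpCAM+ libraries. Some libraries stood apart from their group. The PDPN+ vehicle libraries of mice V53175 and V53188 had scores of 113 and 70.7 on principal component 1 of PDPN+ cells, where the other 6 lay between -56.7 and -13.8, and fewer genes reached 10 reads in them than in any other library (12057 and 11876). The EpCAM+ libraries of vehicle mice V53175 and V53176 and neratinib mouse N53178 had scores of 59.1, 64.4 and 61.1 on component 1 of EpCAM+ cells, where the other 8 lay between -33.0 and -8.72, and their islet marker sums (1447 to 4287 TPM) were the highest of the 11. In bulk libraries, fewer cells of a type and less RNA per cell cannot be told apart.

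Start regions of Inhba, Inhbb and Gdf15 are shown as RefSeq gives them on GRCm38.p6, from 250 bases before to 50 after the start, 5′ to 3′. RefSeq windows were found for 5 of the 9 genes. Inhba and Inhbb are shown because they encode the activin beta chains that differed between the populations, and both Gdf15 starts because its transcripts were read separately. Capitals mark matches, on either strand, to a TATA box (TATAAA), a GC box (GGGCGG), an AP-1 motif (TGANTCA), a cAMP response element (TGACGTCA), an ATF4-C/EBP composite (TGATGNAA) or a SMAD GC-rich element (GGCGCC).
Inhba (Inhba-201), chr13:16011601-16011900, plus strand: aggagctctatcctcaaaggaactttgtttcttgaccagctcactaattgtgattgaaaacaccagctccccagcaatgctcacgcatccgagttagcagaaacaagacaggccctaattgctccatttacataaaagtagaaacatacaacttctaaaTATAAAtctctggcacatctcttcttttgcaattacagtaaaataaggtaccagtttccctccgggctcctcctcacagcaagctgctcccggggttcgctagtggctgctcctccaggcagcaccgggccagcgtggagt
Inhbb (Inhbb-201), chr1:119422199-119422498, minus strand: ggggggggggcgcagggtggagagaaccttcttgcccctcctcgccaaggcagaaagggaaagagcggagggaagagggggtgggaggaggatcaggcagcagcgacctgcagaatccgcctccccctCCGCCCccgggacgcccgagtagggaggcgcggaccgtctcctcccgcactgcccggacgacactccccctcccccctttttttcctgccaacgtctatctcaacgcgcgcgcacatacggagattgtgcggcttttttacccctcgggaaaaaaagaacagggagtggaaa
Gdf15 (Gdf15-202), chr8:70632407-70632706, minus strand: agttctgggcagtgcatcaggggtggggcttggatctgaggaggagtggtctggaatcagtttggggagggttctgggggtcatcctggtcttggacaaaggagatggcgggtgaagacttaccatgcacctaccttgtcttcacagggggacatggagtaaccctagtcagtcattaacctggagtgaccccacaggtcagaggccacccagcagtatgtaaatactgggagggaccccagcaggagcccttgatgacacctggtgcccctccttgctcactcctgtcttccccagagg
Gdf15 (Gdf15-201), chr8:70632046-70632345, minus strand: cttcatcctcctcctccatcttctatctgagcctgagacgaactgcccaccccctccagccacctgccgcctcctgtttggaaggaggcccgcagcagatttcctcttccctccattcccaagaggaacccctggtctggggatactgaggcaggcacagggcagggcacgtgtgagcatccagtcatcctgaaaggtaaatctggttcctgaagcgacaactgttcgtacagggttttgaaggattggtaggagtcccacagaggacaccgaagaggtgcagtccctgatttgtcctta
In the Inhbb window a single GC box lay 122 bases before the start, and 35.7% of all 32851 windows of this length held one. The Inhba window held a TATA box 91 bases before the start, which 13.6% of all windows held. Neither Gdf15 window held any of the 6 motifs, and no printed window had overlapping matches. For the motifs not matched in these 4 windows, the shares of all windows were 7.81% for AP-1, 1.79% for the cAMP response element, 3.97% for the ATF4-C/EBP composite and 11.9% for the SMAD element. Windows of Grem1 and Bmp4 are not printed. The Grem1 window held 1 SMAD element, 78 bases before the start, and 3 GC boxes, and the Bmp4 window held 1 GC box. GC made up 64.3% of the Inhbb window, 47.7% of the Inhba window, and 57.0% and 56.0% of the Gdf15-202 and Gdf15-201 windows, against a median of 52.7% over all windows. A match describes letters only.

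To see which of the ligands and antagonists each population transcribed, levels were compared as TPM, which is per transcript length. Inhba, which encodes the activin A chain, had the highest mean of the 9 genes in both PDPN+ groups and in EpCAM+ neratinib cells, and came just after Bmp4 and Gdf15, with overlapping ranges, in EpCAM+ vehicle cells. It stood at 36.6 ± 19.1 TPM in PDPN+ neratinib libraries (SD, n = 4), 134.8 ± 150 TPM in PDPN+ vehicle libraries (n = 4), 24.2 ± 22.9 TPM in EpCAM+ neratinib libraries (n = 5) and 22.4 ± 6.89 TPM in EpCAM+ vehicle libraries (n = 6). Bmp4 was the highest of the 3 BMP genes among the 9, above both Bmp2 and Bmp7 in each of the 19 libraries. Fst was the highest of the 3 antagonists among the 9, above Grem1 in each of the 19 libraries. Inhba, Bmp4 and Fst filled the first 3 places in both PDPN+ groups, with ranges that overlapped between neighbours. In PDPN+ vehicle cells the range of Fst did not overlap that of Gdf15, the next below it. In EpCAM+ cells Gdf15 joined them, between Bmp4 and Fst in neratinib and between Bmp4 and Inhba in vehicle libraries, and its range overlapped those of its neighbours. The ranges of Fst and Bmp2, the next below it, did not overlap in either EpCAM+ group. Nog was last in each group, and Inhbb was the next lowest in both EpCAM+ groups.

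**Figure D1:**
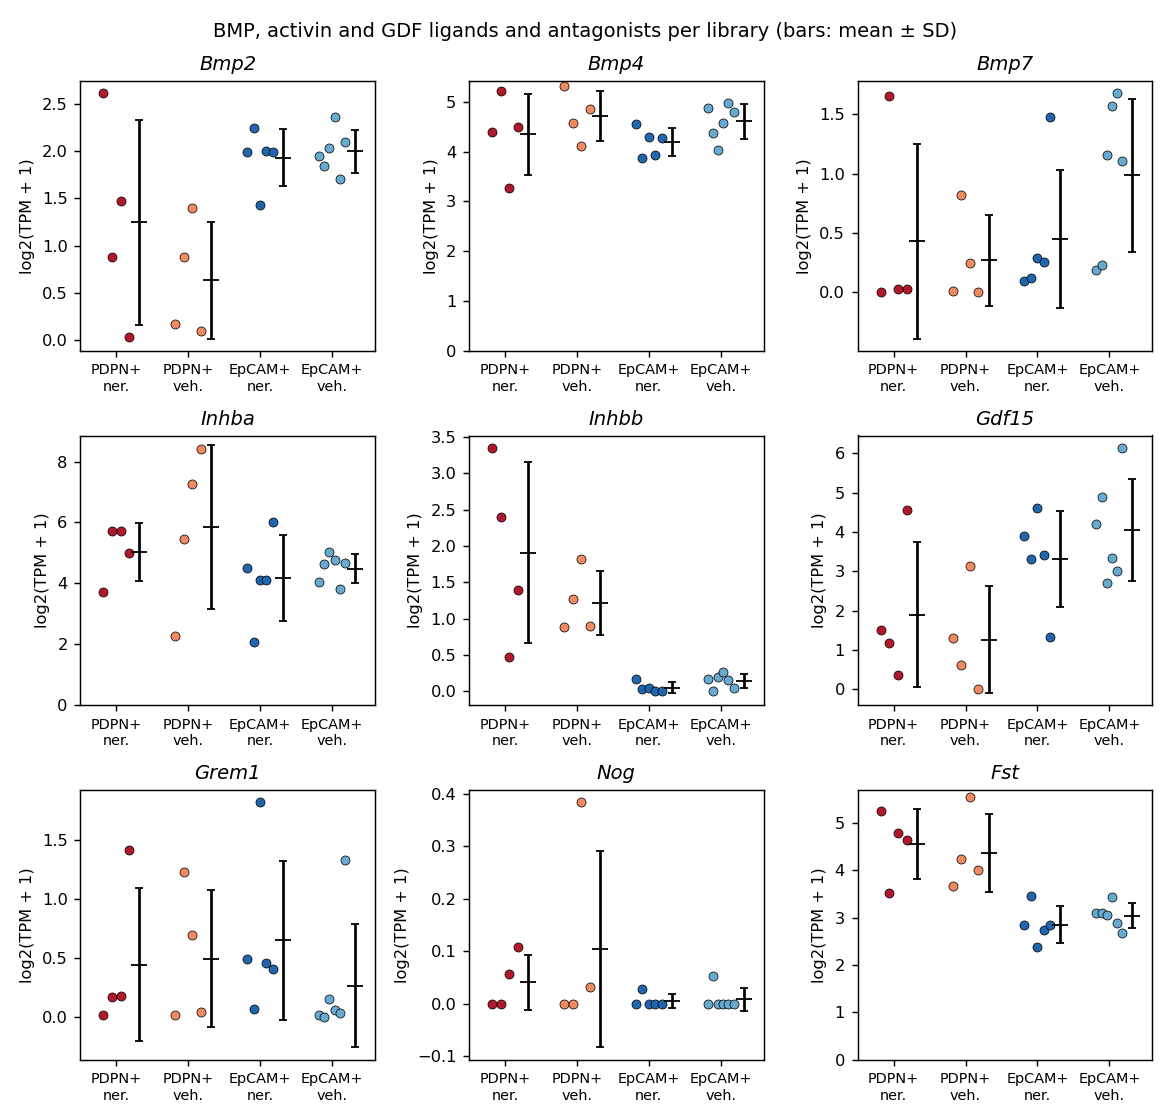
Level of each of the 9 genes, as log2(TPM + 1), in every library of the 4 groups (ner., neratinib, n = 4 and 5; veh., vehicle, n = 4 and 6); the bars give mean ± SD of the plotted values. Inhbb and Fst are higher in all 8 PDPN+ libraries than in all 11 EpCAM+ libraries, and neratinib and vehicle points overlap in each panel.

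Over all 19 libraries, with edgeR's quasi-likelihood test on gene counts and Benjamini-Hochberg adjustment over 19626 genes, Inhbb, Inhba and Fst were higher in PDPN+ cells, and none of the 9 genes was lower. These are 3 of the 8 genes tested (37.5%). Of all genes tested, 49.3% passed in either direction, 24.3% as higher and 25.0% as lower in PDPN+ cells. The 37.5% lay below the share for either direction and above that for higher genes, and no difference is read from 8 genes. At an unadjusted p under 0.05 the count was 4 of 8, against 54.9% of all genes. DESeq2 called 3 of the 9, against 23.5% of all 51707 genes summed, a base that includes genes with few or no reads. Limma on log2(TPM + 1) was run on genes with a mean of at least 1 TPM, which leaves out Bmp7, Grem1 and Nog. It called 4 of the others, against 65.4% of the 14565 genes it tested. The fit with mouse as a block, which did not test Nog, called 2, against 35.6% of 19078 genes tested. The block fit also leaves out the 3 unpaired EpCAM+ libraries, and the effects of the 2 choices were not separated. Nog had too few reads to be tested.

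Inhbb encodes the activin beta-B chain, which forms activin B. Its level was 9.21, 4.29, 0.387 and 1.64 TPM in the PDPN+ neratinib libraries of mice N53178, N53180, N53184 and N53194, and 0.843, 1.41, 2.53 and 0.873 TPM in the PDPN+ vehicle libraries of mice V53175, V53179, V53185 and V53188. In EpCAM+ cells it ranged from 0 to 0.131 TPM in neratinib libraries (median 0.0245) and from 0 to 0.199 TPM in vehicle libraries (median 0.118). The populations did not overlap, which held for 22.1% of all genes tested. The log2 difference was 5.61 (SE 0.92), or 48.7-fold higher in PDPN+ cells, with an edgeR adjusted p of 5.47e-05. Inhbb passed the filter on low counts through the PDPN+ libraries: 48 to 855 reads were counted there, against 0 to 24 in EpCAM+ libraries. The 3 EpCAM+ libraries without a read allow up to 0.0178 to 0.0227 TPM (3 reads each).

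Inhba was higher in PDPN+ cells by a log2 difference of 2.29 (SE 0.59, 4.90-fold, edgeR adjusted p = 0.00312), but its libraries overlapped widely. PDPN+ neratinib libraries held 12.1, 51.2, 52.2 and 30.9 TPM in mice N53178, N53180, N53184 and N53194. PDPN+ vehicle libraries held 3.82, 43.0, 152.8 and 339.7 TPM in mice V53175, V53179, V53185 and V53188. The lowest and the highest of these 8 came from the 2 vehicle libraries that stood apart. Without both the log2 difference was 1.78 (edgeR adjusted p = 0.00361), and without mouse V53188 alone it was 1.51 (edgeR adjusted p = 0.0220). EpCAM+ levels ran from 3.18 to 63.3 TPM in neratinib libraries (median 16.5) and from 13.0 to 31.4 TPM in vehicle libraries (median 24.2). Restricted to the 8 paired animals, with a mouse term, the call was lost (log2 difference 1.72, edgeR adjusted p = 0.148). It was also lost with limma on log2(TPM + 1), at 1.12 (adjusted p = 0.123). Within mice, Inhba was higher in the PDPN+ library of 5 of 8 animals, with a ratio of PDPN+ to EpCAM+ TPM between 0.249 (vehicle mouse V53175) and 26.1 (vehicle mouse V53188).

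Fst encodes follistatin, the soluble activin-binding antagonist. Its level was 37.1, 10.5, 26.7 and 24.1 TPM in the PDPN+ neratinib libraries of mice N53178, N53180, N53184 and N53194, and 11.8, 17.99, 45.6 and 15.1 TPM in the PDPN+ vehicle libraries of mice V53175, V53179, V53185 and V53188. EpCAM+ neratinib libraries held 4.23 to 9.99 TPM (median 6.15) and EpCAM+ vehicle libraries 5.36 to 9.92 TPM (median 7.45). All 8 PDPN+ values lay above all 11 EpCAM+ values, the closest being 10.5 and 9.99 TPM, both from neratinib mouse N53180. The log2 difference was 1.86 (SE 0.32, 3.62-fold, edgeR adjusted p = 9.12e-05), and 1.63 with mouse as a block (edgeR adjusted p = 0.0361). Inhba exceeded Fst in 6 of 8 PDPN+ libraries and in 10 of 11 EpCAM+ libraries, with median TPM ratios of 2.17 and 3.16.

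Within mice, Inhbb and Fst were each higher in the PDPN+ library of all 8 animals, where 34.0% of all genes tested moved one way in all 8. Their populations did not overlap, so any pairing of libraries gives this count, and it is no separate support. For Fst the TPM ratio ran from 1.05 to 6.31. The other genes were mixed. Bmp4 was higher in PDPN+ cells in 4 animals, Grem1 in 5, Bmp2 in 2, and Bmp7 and Gdf15 in 1 each.

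**Figure D2:**
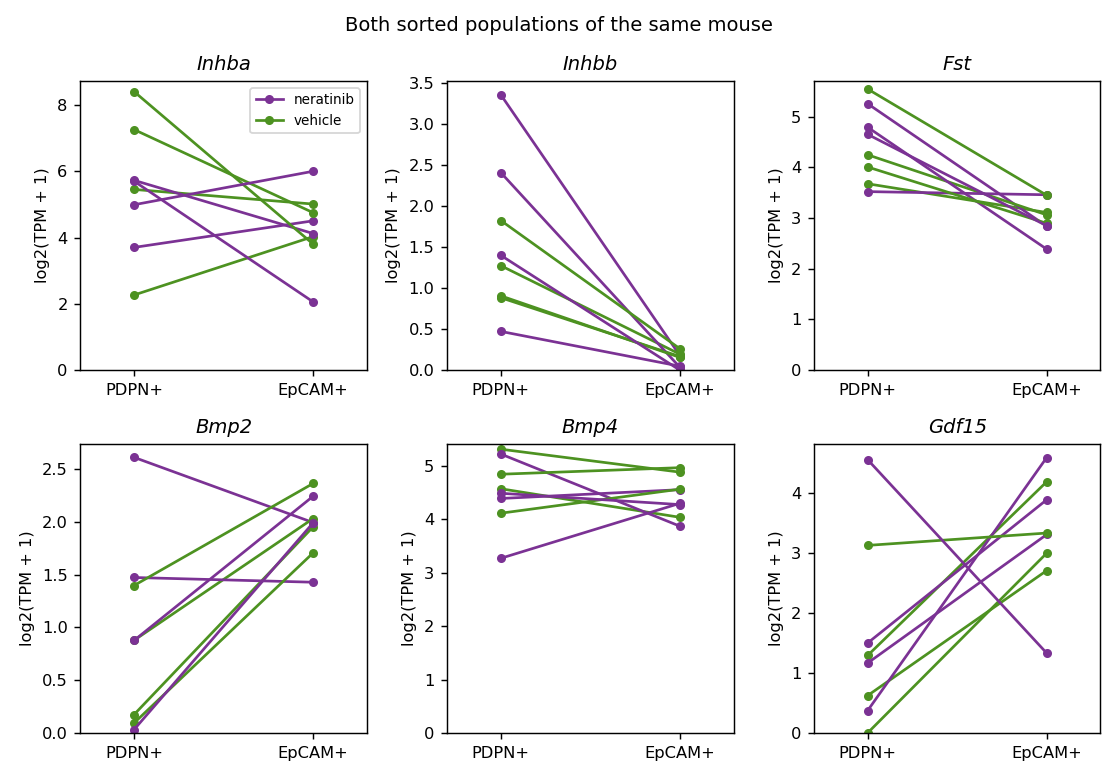
Level of 6 genes as log2(TPM + 1) in the PDPN+ and the EpCAM+ library of the same mouse; each line is 1 of 8 mice, coloured by treatment. Every line falls from PDPN+ to EpCAM+ cells for Inhbb and Fst, as under any pairing where populations do not overlap. The lines cross for Inhba and Bmp4.

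Bmp4 and Bmp2 encode closely related BMPs that signal through the SMAD1/5/9 branch. Bmp4 held 20.01, 36.4, 8.66 and 21.5 TPM in the PDPN+ neratinib libraries of mice N53178, N53180, N53184 and N53194, and 38.8, 22.8, 16.4 and 27.8 TPM in the PDPN+ vehicle libraries of mice V53175, V53179, V53185 and V53188. In EpCAM+ cells it ranged from 13.7 to 22.6 TPM with neratinib (median 18.4) and from 15.4 to 30.3 TPM with vehicle (median 24.8). The populations thus overlapped through nearly their whole range, with means of 24.0 ± 10.0 TPM in PDPN+ cells (n = 8) and 21.04 ± 5.73 TPM in EpCAM+ cells (n = 11). The edgeR log2 difference of 0.81 (SE 0.35) missed the threshold (adjusted p = 0.0650). With mouse as a block it was 0.41 (edgeR adjusted p = 0.543), and on log2(TPM + 1) it was 0.13 (limma adjusted p = 0.648). Without the PDPN+ vehicle library of mouse V53175 it was 0.45 (edgeR adjusted p = 0.275). The difference passed with transcript-length offsets (0.71, edgeR adjusted p = 0.0450) and without the PDPN+ neratinib library of mouse N53184 (0.91, edgeR adjusted p = 0.0160). Macrophage markers (5 genes) summed to 408 TPM in that library, against 27.3 to 106 TPM in the other PDPN+ libraries, and their part in its low Bmp4 value was not tested. The scales differ here: the median log2 difference of all genes was -0.13 in edgeR and -0.64 on the log2(TPM + 1) scale.

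Bmp2 was steady in EpCAM+ cells, from 1.69 to 3.74 TPM with neratinib and from 2.27 to 4.15 TPM with vehicle. In PDPN+ cells it was scattered, at 5.12, 0.836, 1.78 and 0.0219 TPM in neratinib mice N53178, N53180, N53184 and N53194, and 0.128, 0.838, 1.63 and 0.0671 TPM in vehicle mice V53175, V53179, V53185 and V53188. Only the PDPN+ neratinib library of mouse N53178 exceeded the whole EpCAM+ range. The edgeR log2 difference of -0.94 (SE 0.66) did not pass (adjusted p = 0.257). On log2(TPM + 1) it did, at -1.02 (limma adjusted p = 0.00389).

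Bmp7, another BMP of the same branch, was near 0 in most PDPN+ libraries: 0, 2.15, 0.0215 and 0.0201 TPM in neratinib mice N53178, N53180, N53184 and N53194, and 0.00897, 0.763, 0.189 and 0 TPM in vehicle mice V53175, V53179, V53185 and V53188. The highest PDPN+ library, of neratinib mouse N53180, held 238 reads, and 5 of the 8 held 0 to 3. The EpCAM+ values of Bmp7 were sorted and cut at their widest gap, which always gives a low and a high range. The low range was 0.0693 to 0.224 TPM in 6 libraries, from 7 to 27 reads each. The high range was 1.15 to 2.20 TPM in 5. Of the neratinib libraries, 4 of 5 and, among vehicle libraries, V53175 and V53176 were in the low range, and the neratinib library of mouse N53194 and the other 4 vehicle libraries in the high one. Those 2 vehicle libraries and the neratinib library of mouse N53178, all 3 that stood apart, were thus in the low range. The edgeR log2 difference between the populations was -0.61 (SE 1.15, adjusted p = 0.690). It turned on single libraries: it was -3.21 without the PDPN+ neratinib library of mouse N53180 (edgeR adjusted p = 0.0294), and 0.26 without the EpCAM+ neratinib library of mouse N53194 (edgeR adjusted p = 0.870).

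Gdf15 ranged over all 19 libraries from no read to 69.4 TPM. PDPN+ neratinib libraries held 1.83, 1.25, 0.295 and 22.6 TPM in mice N53178, N53180, N53184 and N53194, and PDPN+ vehicle libraries 1.45, 0.541, 7.77 and 0 TPM in mice V53175, V53179, V53185 and V53188. EpCAM+ libraries held 1.52 to 23.2 TPM with neratinib (median 9.66) and 5.55 to 69.4 TPM with vehicle (median 13.2). In 7 of 8 mice the PDPN+ library was the lower one. The exception was neratinib mouse N53194, which had the highest PDPN+ value and, at 1.52 TPM, the lowest EpCAM+ value. The edgeR log2 difference was -1.74 (SE 0.91, adjusted p = 0.124). It was -3.03 without the PDPN+ library of mouse N53194 (edgeR adjusted p = 0.0120), -2.58 without that of vehicle mouse V53185 (edgeR adjusted p = 0.0357) and -2.10 on log2(TPM + 1) (limma adjusted p = 0.00512). It did not pass with mouse as a block (-2.82, edgeR adjusted p = 0.164) or in DESeq2 (-1.81, adjusted p = 0.0572). Without the EpCAM+ vehicle library of mouse V53192 it was -1.41 (edgeR adjusted p = 0.222). Epithelial marker sums in PDPN+ libraries were 934 TPM in mouse N53194 and 767 TPM in mouse V53185, inside the range of the other PDPN+ libraries, and their part in the Gdf15 values was not tested.

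The BMP antagonists Grem1 and Nog were low. Grem1 had at least 10 reads in 5 of 8 PDPN+ and 6 of 11 EpCAM+ libraries. It held 0.00810, 0.121, 0.130 and 1.66 TPM in PDPN+ neratinib mice N53178, N53180, N53184 and N53194, and 0.00728, 1.34, 0.613 and 0.0283 TPM in PDPN+ vehicle mice V53175, V53179, V53185 and V53188. In EpCAM+ cells it ranged from 0.0464 to 2.53 TPM with neratinib (median 0.373) and from 0 to 1.51 TPM with vehicle (median 0.0326). Population means were 0.488 TPM each, and the edgeR log2 difference of 0.52 (SE 1.15, adjusted p = 0.733) turned to -0.69 without the PDPN+ neratinib library of mouse N53194 and to -0.18 without the PDPN+ vehicle library of mouse V53179. Nog had no read in 4 of 8 PDPN+ and 9 of 11 EpCAM+ libraries, which allows up to 0.0486 to 0.0631 and 0.0327 to 0.0637 TPM per library. Its highest value was 0.305 TPM, from 16 reads, in the PDPN+ vehicle library of mouse V53185. With no filter on low counts Nog passed as higher in PDPN+ cells (log2 difference 2.91, edgeR adjusted p = 0.0328), and in DESeq2 it did not (3.16, adjusted p = 0.167).

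Within populations, 7 of the 9 genes were tested between neratinib and vehicle in PDPN+ cells, and 8 in EpCAM+ cells. None passed in either population, where 0.0% of 14437 and 0.0% of 17200 genes passed in edgeR. At an unadjusted p under 0.05, 0 of these genes passed, against 331 (2.29%) of all genes in PDPN+ cells and 524 (3.05%) in EpCAM+ cells. DESeq2 called 76 genes in PDPN+ cells and 15 in EpCAM+ cells, with 0 of the 9 among them. Neratinib and vehicle ranges overlapped for each of the 9 genes in both populations, and 2.81% and 0.401% of all genes did not overlap. These sizes of group leave wide errors, and a missed threshold does not show equal levels.

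In PDPN+ cells, Inhba had the smallest unadjusted p, at a log2 fold change of -1.96 (SE 0.99, edgeR adjusted p = 0.9998), neratinib over vehicle. Its 2 highest libraries were vehicle, and so was its lowest. The log2 fold change lay between -2.37 and -0.49 when each library was left out in turn, and the value nearest 0 was the one without vehicle mouse V53188. Bmp2 (1.95, SE 1.66), Inhbb (1.67, SE 1.22) and Gdf15 (1.68, SE 1.898) were positive, and Bmp4 (-0.32, SE 0.76), Grem1 (0.03, SE 1.76) and Fst (0.09, SE 0.67) were near 0. Without the neratinib library of mouse N53194 the Gdf15 value was -0.75. Bmp7 and Nog were not tested. Mitochondrial genes took 12.4 to 19.4% of reads in PDPN+ neratinib libraries and 6.14 to 17.3% in PDPN+ vehicle libraries, and their part in these values was not tested.

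In EpCAM+ cells, Bmp4 had the smallest unadjusted p, with a log2 fold change of -0.41 (SE 0.21, edgeR adjusted p = 0.9991), and means of 17.5 ± 3.65 TPM with neratinib (n = 5) and 24.0 ± 5.69 TPM with vehicle (n = 6). It stayed between -0.50 and -0.30 when each library was left out in turn. Bmp7 (-1.28, SE 1.00), Inhbb (-1.44, SE 1.03) and Gdf15 (-1.04, SE 0.76) were also negative. Bmp2 (-0.14, SE 0.20) and Fst (-0.17, SE 0.20) had the smallest errors, and Inhba (0.05, SE 0.55) and Grem1 (1.38, SE 1.37) were positive. Acinar markers (4 genes) summed to 14.1 to 50.1 TPM in EpCAM+ neratinib libraries and 13.3 to 1093 TPM in EpCAM+ vehicle libraries, and their part in these values was not tested. The difference between the neratinib effects of the populations was tested over all 19 libraries. It passed for 0 of the 8 genes tested, where 0.0662% of all genes (13 of 19626) passed in edgeR. At an unadjusted p under 0.05 it also passed for 0 of them, against 11.2% of all genes, and DESeq2 called 0 of them. The smallest adjusted p among them was 0.538, for Inhbb (log2 difference of effects 3.08, SE 1.65).

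**Figure D3:**
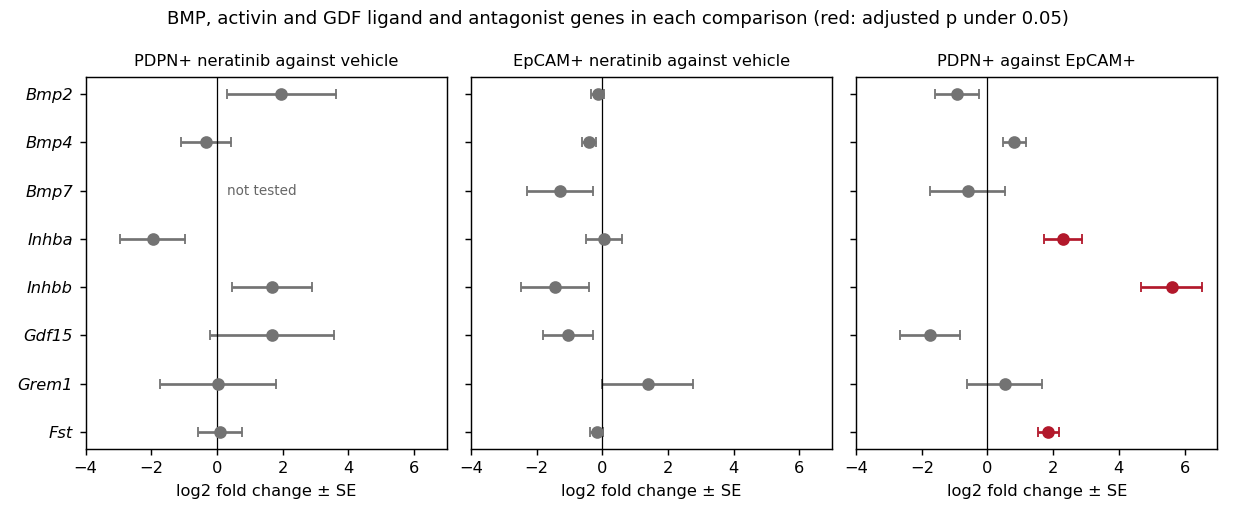
Log2 fold change with its SE (edgeR) of 8 of the genes for neratinib over vehicle in PDPN+ cells (n = 4 and 4) and EpCAM+ cells (n = 5 and 6), and for PDPN+ over EpCAM+ cells (n = 8 and 11); red marks an adjusted p under 0.05 and Nog was not tested. Only Inhba, Inhbb and Fst in the third panel are red.

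Transcript estimates differed in how steady they were. Inhba-202 held 78.5 to 96.2% of the gene's TPM in PDPN+ libraries and 92.7 to 94.4% in EpCAM+ libraries, and Inhba-201, whose start region is printed above, held the rest. Gdf15-202 led in 7 of 8 PDPN+ libraries, the eighth having no read, and in 11 of 11 EpCAM+ libraries, with 80.2% and 81.2% of the TPM. Gdf15-201 held 19.8% and 18.8%. The 2 transcripts start at the windows printed above. Bmp2, Inhbb, Grem1 and Nog had 1 transcript each.

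For Bmp4 and Fst, and to a smaller extent Bmp7, part of the TPM came from retained-intron transcripts. Bmp7-202, a retained-intron transcript, held 0.989% of Bmp7 TPM in PDPN+ cells and 3.39% in EpCAM+ cells. In the EpCAM+ vehicle library of mouse V53175 it held 79.0%, and the protein-coding Bmp7-201 stood at 0.0287 TPM. Bmp4-201, which is protein-coding, held 60.4% of Bmp4 TPM in PDPN+ cells and 49.9% in EpCAM+ cells. Bmp4-204, a retained-intron transcript with a mean effective length of 130 bases, held 22.0% and 28.8%. Counting protein-coding transcripts alone, Bmp4 stood at 15.3 ± 11.8 TPM in PDPN+ neratinib, 18.6 ± 13.2 in PDPN+ vehicle, 12.6 ± 2.48 in EpCAM+ neratinib and 15.8 ± 3.86 in EpCAM+ vehicle libraries. In the PDPN+ neratinib library of mouse N53184, lowest of all for Bmp4, 1.78 TPM was protein-coding. Fst had no dominant transcript in PDPN+ cells, where Fst-203 (retained intron) and Fst-205 each held 29.9% and Fst-202 24.4%. In EpCAM+ cells Fst-202 led in 10 of 11 libraries with 35.7%. Protein-coding Fst stood at 16.5 ± 9.89, 15.5 ± 8.68, 3.54 ± 0.909 and 3.96 ± 0.613 TPM in the same 4 groups. Its lowest PDPN+ value (1.93 TPM, in neratinib mouse N53180) was below the EpCAM+ range of 2.50 to 4.90 TPM. Bmp4, Inhba and Fst overlap genes on the opposite strand, and the strand setting is not stated, so their reads cannot be told apart from those of their partners. The largest such partner was Gm15222, opposite Bmp4, at 1.87 TPM in PDPN+ and 4.99 TPM in EpCAM+ cells.

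**Figure D4:**
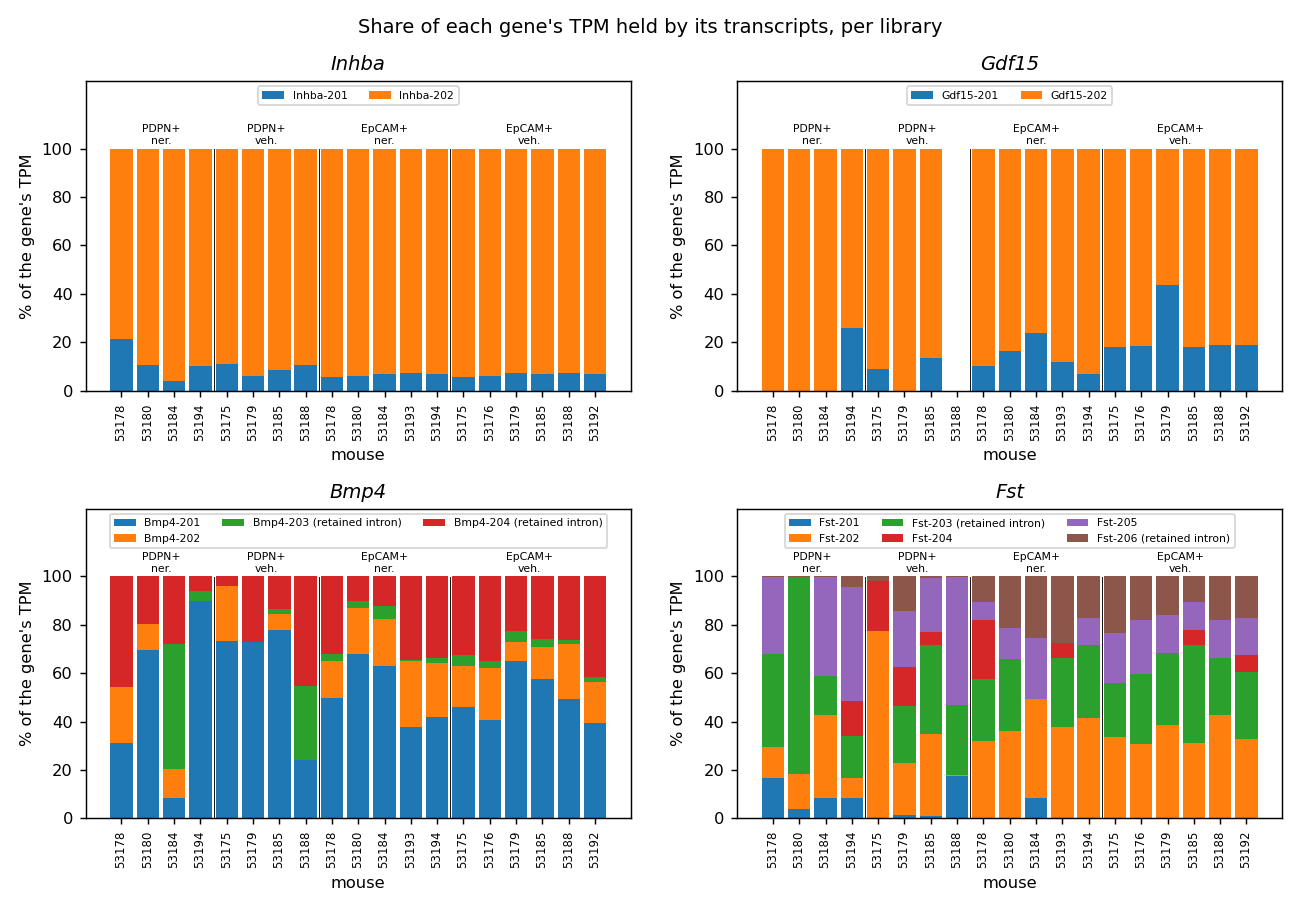
Share of each gene's TPM, in percent, held by its transcripts in each library, for Inhba, Gdf15, Bmp4 and Fst; each bar is 1 library, labelled by mouse and grouped as PDPN+ neratinib, PDPN+ vehicle, EpCAM+ neratinib and EpCAM+ vehicle. Inhba-202 fills most of every bar, the Bmp4 and Fst shares vary between PDPN+ libraries, and the empty bar is a library with no Gdf15 read.

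Libraries of PDPN+ cells varied more for all genes: the median SD of log2(CPM + 1), with CPM as counts-per-million, was 1.04 over the 8 PDPN+ libraries and 0.283 over the 11 EpCAM+ libraries. Inhba varied most of these genes in PDPN+ cells (SD 1.88) and Fst least (0.851). In EpCAM+ cells Gdf15 (1.26), Grem1 (1.02), Bmp7 (1.00) and Inhba (0.993) lay far above the median gene, while Bmp2 (0.284) and Fst (0.279) lay near it. The genes most like each were taken as those with the highest Pearson r of log2(CPM + 1) over the libraries of the population where the gene was higher. For Inhba these were Fzd1, Nectin1 and Dgkd (r = 0.969, 0.960 and 0.947 over 8 PDPN+ libraries). For Fst they were Prr5, Ythdf2 and Ptms (0.986, 0.954 and 0.941 over 8), and for Bmp4 Zmiz1 and Ubap1 (0.960 and 0.957 over 8). For Gdf15 they were Fam53a, Hist1h2ae and Fam20c (0.985, 0.971 and 0.968 over 11 EpCAM+ libraries), and for Bmp2 Xpnpep3, 1700007L15Rik and Top1 (0.863, 0.813 and 0.812 over 11). These are descriptions over few libraries that share depth and library effects, taken as the highest of 14437 or 17200 genes.

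The rest of the pathway was read from 7 lists of 88 genes in all, of which 66 could be tested between the populations. Smad6, Smad7 and Bambi stand in both the SMAD and the target list. In edgeR 30 were higher and 10 lower in PDPN+ cells, or 60.6% of those tested against 49.3% of all genes. By direction, 24.3% of all genes were higher and 25.0% lower. The lists were chosen with earlier results of these data known, so these shares cannot serve as a test of the pathway. No list gene passed for neratinib in either population, with 61 tested in PDPN+ and 57 in EpCAM+ cells.

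Among the other ligands, 5 of 11 tested were higher in PDPN+ cells, 3 lower and 3 did not pass, and 12 of 23 had too few reads. The shares of all genes were 24.3% higher and 25.0% lower. The median log2 difference was 1.39, against -0.13 for all genes tested. Gdf6 and Gdf10, a BMP-class and a TGF-beta superfamily ligand, stood at 2.10 and 1.38 TPM in PDPN+ cells, against 0.00183 and 0.00642 TPM in EpCAM+ cells (fitted log2 differences 9.86 and 8.42). Both were nearly without reads in EpCAM+ cells, so they could be tested only through PDPN+ libraries, and the size of the fitted difference is uncertain. The same limit holds for the other list genes named below with a mean near 0 TPM in 1 population. Inha, the inhibin alpha chain that opposes activin by pairing with its beta chains, averaged 2.80 TPM in PDPN+ and 0.165 TPM in EpCAM+ cells (4.52, edgeR adjusted p = 0.000285). With mouse as a block its adjusted p in edgeR was 0.0536. Bmp8b (-10.88), Bmp3 (-7.77) and Bmp8a (-6.43) were lower in PDPN+ cells. Bmp8b averaged 0.00869 TPM in PDPN+ cells, against 24.0 TPM in EpCAM+ cells, a level of the same order as that of Bmp4.

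Of the other antagonists, 9 of 12 tested were higher in PDPN+ cells, 0 lower and 3 did not pass. The median log2 difference was 2.78, and the shares of all genes were 24.3% higher and 25.0% lower. Fstl1, a secreted follistatin-like protein, averaged 789 TPM in PDPN+ cells, against 3.90 TPM in EpCAM+ cells (8.34, SE 0.54, edgeR adjusted p = 5.94e-10). Bmper, which binds BMPs outside the cell, averaged 34.7 and 0.269 TPM (7.61, edgeR adjusted p = 9.08e-08). Chrd, Chrdl1, Fstl3, Kcp, Nbl1 and Twsg1 were also higher.

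Receptors and co-receptors were mostly higher in PDPN+ cells: 8 of 11 tested were higher, 1 lower and 2 did not pass. The median log2 difference was 1.11, and the shares of all genes were 24.3% higher and 25.0% lower. The co-receptors Tgfbr3 (betaglycan) and Eng (endoglin) averaged 25.4 and 22.0 TPM in PDPN+ cells, against 0.262 and 0.843 TPM in EpCAM+ cells (log2 differences 7.25 and 5.38). Acvrl1, the type I receptor ALK1 known from endothelium, averaged 13.2 TPM in PDPN+ and 1.67 TPM in EpCAM+ cells (3.86, edgeR adjusted p = 1.28e-07). Blood endothelial markers (4 genes) summed to 3.37 to 28.6 TPM in PDPN+ libraries and 0.693 to 7.98 TPM in EpCAM+ libraries. Kdr (9.80 against 0.182 TPM) and Pecam1 (4.06 against 0.731 TPM) were higher in PDPN+ cells. Cdh5 (0.649 against 1.65 TPM) and Tek (0.216 against 0.183 TPM) did not pass. The part of endothelial cells in the Eng and Acvrl1 values was not tested. The BMP receptors Bmpr1a (0.84) and Bmpr2 (0.97) differed by less. Acvr2a, a type II activin receptor, was lower in PDPN+ cells, at 0.751 TPM against 4.83 TPM (-2.29, edgeR adjusted p = 0.0214), a call lost without the 3 EpCAM+ libraries that stood apart (-1.69, edgeR adjusted p = 0.118). Gfral, the GDF15 receptor, was listed at 0 TPM in PDPN+ cells and 0.0134 TPM in EpCAM+ cells.

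Of the SMADs and their inhibitors, 1 of 10 tested passed, against 49.3% of all genes. It was Smad2, an activin-branch SMAD, at 7.93 TPM in PDPN+ cells against 36.7 TPM in EpCAM+ cells (-1.73, SE 0.53, edgeR adjusted p = 0.0115). Smad3, also of the activin branch, averaged 11.04 and 11.06 TPM and did not pass (-0.33, SE 0.41, edgeR adjusted p = 0.534). The BMP-branch Smad1 (-0.06, SE 0.54) and Smad5 (-0.09, SE 0.30), and the inhibitors Smad6 (0.37, SE 0.51) and Smad7 (0.30, SE 0.29), did not pass. Among BMP target genes, 4 of 9 tested were higher in PDPN+ cells, 1 lower and 4 did not pass. The shares of all genes were 24.3% higher and 25.0% lower. The inhibitor-of-differentiation genes divided: Id3 averaged 669 TPM in PDPN+ cells against 64.1 TPM in EpCAM+ cells (3.89, SE 0.23, edgeR adjusted p = 2.20e-10), whereas Id2 averaged 87.9 TPM against 609 TPM (-2.21, SE 0.27, edgeR adjusted p = 1.93e-06). Id1 averaged 181 and 221 TPM and did not pass (0.22, SE 0.24). Msx1 (7.77) and Id4 (5.86) were higher in PDPN+ cells.

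Of the proteases that cut ligand precursors or antagonists, 2 of 6 tested were higher in PDPN+ cells and 2 lower. The shares of all genes, for these and the stress response genes below, were 24.3% higher and 25.0% lower. Bmp1, the procollagen C-proteinase whose family also cleaves chordin, averaged 110.8 TPM in PDPN+ cells against 7.27 TPM in EpCAM+ cells (4.53, SE 0.26, edgeR adjusted p = 1.23e-10), and Pcsk5 2.62 against 0.0141 TPM (7.85). Furin, a convertase that matures BMP and activin precursors, averaged 5.28 TPM in PDPN+ and 53.0 TPM in EpCAM+ cells (-2.81, edgeR adjusted p = 9.42e-05). Pcsk7 (-1.62, edgeR adjusted p = 0.00635) lost its call with transcript-length offsets (-0.63, edgeR adjusted p = 0.0937). Of 10 stress response genes that often accompany Gdf15, Ddit3 (1.66) and Atf4 (1.09) were higher in PDPN+ cells, Trib3 (-4.11) and Asns (-1.01) lower, and 6 did not pass. The Asns call was lost with mouse as a block (edgeR adjusted p = 0.0622) and without the PDPN+ vehicle library of mouse V53185 (edgeR adjusted p = 0.0537).

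**Figure D5:**
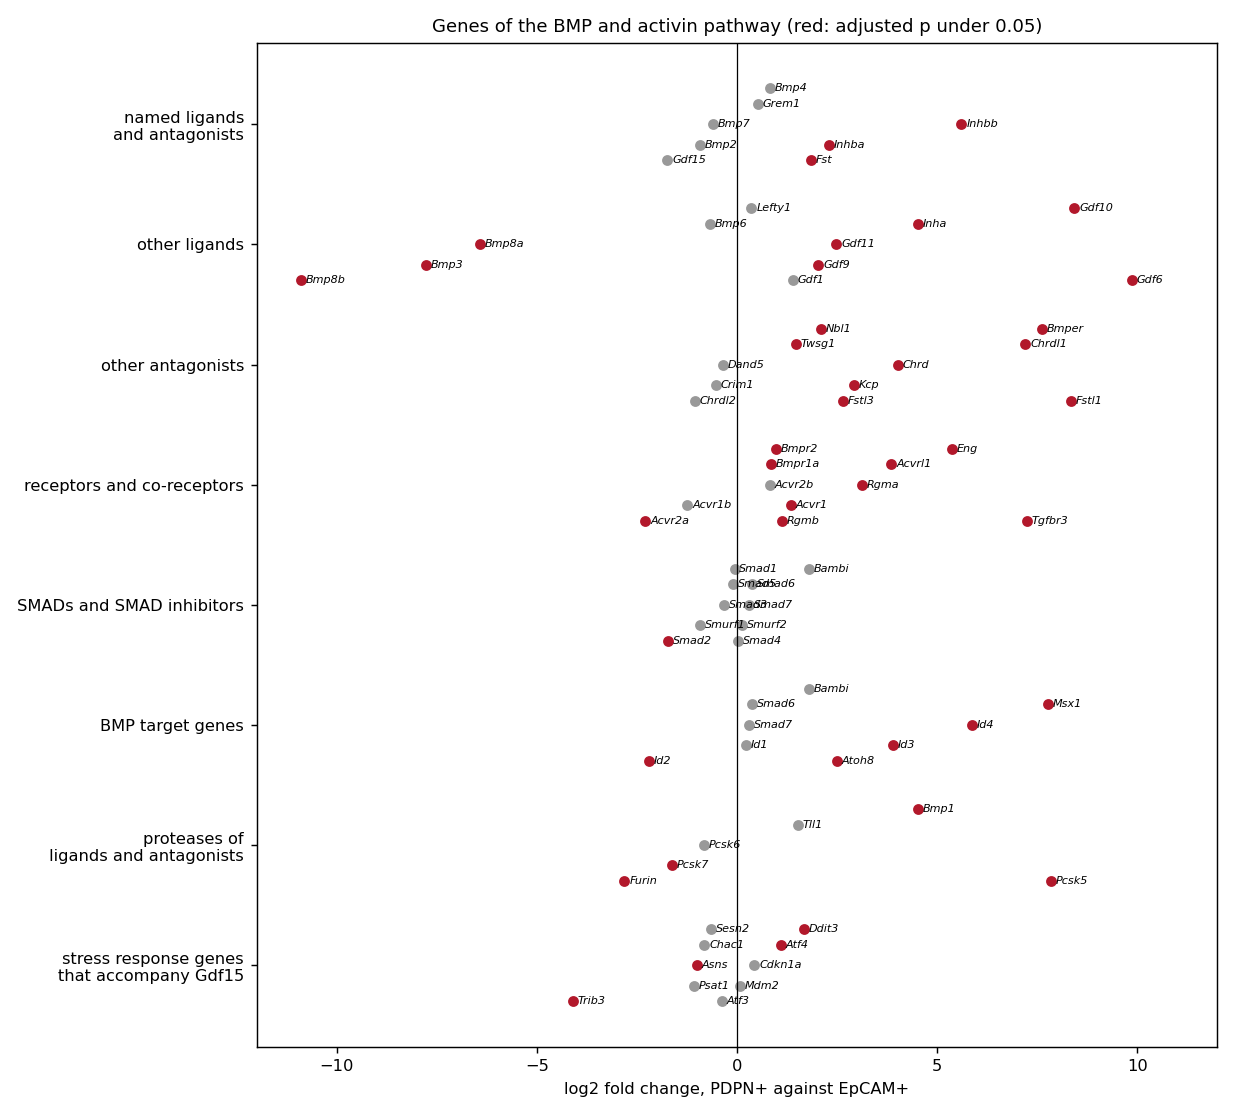
Log2 fold change of PDPN+ over EpCAM+ cells (edgeR, n = 8 and 11) for the tested genes of the 9 ligands and antagonists and of 7 pathway lists (11 of 12 other antagonists are drawn); red marks an adjusted p under 0.05. Antagonists lie mostly to the right, where PDPN+ cells are higher, and SMADs cluster around 0.

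In the neratinib comparisons the list genes with the smallest unadjusted p were also short of the adjusted threshold. At an unadjusted p under 0.05 there was 1 such gene in PDPN+ cells, Asns (-1.83, SE 0.79). In EpCAM+ cells there were 3: Acvr1, a BMP type I receptor (-0.42, SE 0.16), Acvrl1 (0.59, SE 0.26) and Ddit3 (-0.53, SE 0.24). Their edgeR adjusted p was 0.9998 in PDPN+ cells and 0.9991 in EpCAM+ cells. Acvrl1 in EpCAM+ cells fell outside the rule for named genes and was picked after its value was seen.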

How the data were processed

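RNA-seq libraries of sorted PDPN+ and EpCAM+ cells were quantified by the authors with Salmon 1.9.0 against GRCm39 (mm39), per the submitters' processing notes. Per the file headers, each deposited table gives estimated counts, TPM and an effective length per transcript. Strand setting: not given in the sources used here. Estimated counts were summed to genes through GENCODE M21 names (137063 of 147828 transcripts matched, 51707 genes) and rounded to whole numbers. Unmatched transcripts held 4.07 to 8.96% of reads in PDPN+ and 1.77 to 2.26% in EpCAM+ libraries. Deposited TPM were summed per gene without rescaling.

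Counts were tested with edgeR 4.0.16 (TMM, filterByExpr, robust quasi-likelihood F-test, R 4.3.3), with Benjamini-Hochberg adjustment over all genes tested and a threshold of 0.05. The neratinib contrast was fitted in each population separately, and the populations and the interaction over all 19 libraries with 4 group means. Alternatives used DESeq2 1.42.0 and limma 3.58.1 (log2(TPM + 1), mean TPM of at least 1). Scripts were tested on simulated data. Where a library had no read, 3 reads gave the limit, which covers counting error only. The labels do not say that libraries of a group came from separate cultures or animals beyond the 5-digit number, so p-values measure the spread between these libraries. Same-numbered libraries of the populations did not deviate together: the correlation of their deviations lay between -0.19 and 0.06, highest with its own number in 2 of 8 mice.

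The 9 genes and all lists were chosen with earlier results of these data known. Genes named from each list are, between the populations, up to 3 per direction with the largest absolute log2 difference among those that passed with a mean of at least 1 TPM in one population, and for neratinib the 1 with the smallest unadjusted p. Other list genes with values, such as Id1, Gfral, Bmpr1a, Bmpr2 and some SMADs, were picked after their values were seen. Some genes that the rule names are not reported here. Promoter windows come from RefSeq (GRCm38.p6).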

Additional observations from a re-analysis of the deposited data

Results flagged for a closer look

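In 9 of 33 sets of gene and group, 1 library lay far from the rest by Dixon's criterion, which chance meets in about 1 of 20 sets of normally distributed values. The rate for these TPM, some of which rest on few reads, was not measured. Bmp7 was 2.15 TPM in the PDPN+ neratinib library of mouse N53180, where the next value was 0.0215 TPM, and 1.78 TPM in the EpCAM+ neratinib library of mouse N53194, where the next was 0.224 TPM. Inhbb was 0.131 TPM in the EpCAM+ neratinib library of mouse N53178, from 13 reads. Gdf15 was 22.6 TPM in the PDPN+ neratinib library of mouse N53194 and 69.4 TPM in the EpCAM+ vehicle library of mouse V53192. Grem1 was 1.66 TPM in the same PDPN+ library of mouse N53194, 2.53 TPM in the EpCAM+ neratinib library of mouse N53184 and 1.51 TPM in the EpCAM+ vehicle library of mouse V53192. Nog was 0.305 TPM in the PDPN+ vehicle library of mouse V53185, from 16 reads.

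Several of these share a library. Gdf15 and Grem1 were both highest of their group in PDPN+ cells of mouse N53194 and in EpCAM+ cells of mice N53184 and V53192. On the second principal component of EpCAM+ cells, mice V53192 and N53184 lay at 37.2 and 25.5 and the other 9 libraries between -31.5 and 4.33. Their acinar marker sums were also the highest of their groups, at 1093 TPM (next 297) and 50.1 TPM (next 24.2). In PDPN+ neratinib cells mouse N53194 held 46.4 TPM, below the highest of 57.6 TPM. The part of this component and of acinar transcripts in the Gdf15 and Grem1 values was not tested.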

How the results depend on the processing

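The number of genes called for neratinib in PDPN+ cells was 0 in edgeR, 76 with DESeq2, 1 with limma and 111 with all 19 libraries in 1 fit. In EpCAM+ cells it was 0, and 15 with DESeq2. The interaction was called for 13 genes in edgeR, 687 with DESeq2, 1 with limma, 572 without PDPN+ vehicle mice V53175 and V53188, 1 without the 3 EpCAM+ libraries that stood apart, and 9 to 131 when each library was left out in turn. With the replicate block it was called for 0 genes, where DESeq2 without a block called 687 and 2190 genes had an unadjusted p under 0.05 in edgeR without it. No paired analysis was possible for neratinib because no mouse was in both treatments. Between the populations, the fit with the replicate block, which also leaves out the unpaired EpCAM+ libraries, called 6792 genes against 9673, and Inhba, Inha and Asns did not pass in it. The effects of the 2 choices were not separated.

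Directions of uncalled values turned as follows. For neratinib in PDPN+ cells, without vehicle mice V53175 and V53188, Bmp4 was 0.20, Grem1 -0.91 and Fst -0.24, and Grem1 was -1.36 with the file-name digit as a covariate. Leaving out each library in turn gave -0.84 to 0.29 for Bmp4, -0.75 to 3.22 for Gdf15, -2.20 to 1.35 for Grem1 and -0.17 to 0.42 for Fst. In EpCAM+ cells Inhba was -0.32 with limma and -0.0095 with the digit, and -0.68 to 0.33 over single libraries. Pcsk6 was 0.052 with limma, 0.021 without the 3 EpCAM+ libraries and -0.14 to 0.040 over single libraries. Between the populations, single libraries moved Bmp7 between -3.21 and 0.26 and Grem1 between -0.69 and 1.93. For the interaction, Bmp4 was -0.076 with the replicate block and -0.39 to 0.70 over single libraries, Bmp7 -2.49 to 4.73, and Fst -0.074 without the 2 PDPN+ vehicle libraries and -0.0025 to 0.61. The causes were not tested. Of the values per gene, 1572 kept direction and side of the threshold, 35 turned, 7 came to pass and 8 ceased to. Depth limits Nog, Bmp7, Grem1 and EpCAM+ Inhbb.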
